A study of Homo sapiens with 12 samples.

Results

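The genes described here are 10 members of the chaperone and quality control system of the endoplasmic reticulum (ER) and of its stress programme, the unfolded protein response. They are HSPA5, HSP90B1, DNAJB9, SDF2L1, PDIA4, CALR, CANX, GANAB, HERPUD1 and XBP1. They were found by gene symbol among the 29890 genes of the table for the bladder cancer line 5637 and the 58735 genes of the table for the renal cancer line 786-O. All 10 were present once in each table. RNA-seq was done on 12 libraries. Each line gave 3 libraries with the Polycomb gene CBX7 silenced (shCBX7) and 3 sh control libraries. No drug or other treatment is labelled for any group, and the labels do not name the hairpin, the number of hairpins or whether a line is a single clone. CBX7 is a chromobox subunit of Polycomb repressive complex 1, and the comparison asks how each line's transcripts differ once it is lowered.

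Proteins destined for secretion or for membranes fold in the lumen of the ER. There the HSP70 chaperone BiP (HSPA5) and the HSP90 paralogue GRP94 (HSP90B1) hold unfolded chains, disulphide isomerases such as PDIA4 pair cysteines, and the lectins calnexin (CANX) and calreticulin (CALR) retain glycoproteins whose glucose residues have been trimmed by glucosidase II (GANAB). When unfolded protein accumulates, the sensors IRE1, PERK and ATF6 switch on a transcription programme that enlarges this machinery. IRE1 splices the message of the transcription factor XBP1, ATF6 acts through ER stress response elements in promoters, and PERK slows translation and favours ATF4. Values here are per gene, so spliced and unspliced XBP1 messages cannot be told apart.

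The ER stress response element (ERSE) is CCAAT, then 9 bases of any kind, then CCACG, and the compact ERSE-II is ATTGG, 1 base of any kind, then CCACG. They are where the factor NF-Y (CCAAT or its complement ATTGG) and ATF6 or XBP1 (CCACG) meet. Both were searched on both strands of RefSeq promoters (GRCh38.p14, 250 bases before to 50 after each start). No mismatch in the fixed letters was allowed. All 10 genes matched a promoter, 15 promoters in all. An ERSE lay in promoters of HSPA5, HSP90B1, CALR, CANX and XBP1, and an ERSE-II in those of HERPUD1 and SDF2L1. Among all 27305 symbols of that table, 0.0916% held an ERSE and 0.0696% an ERSE-II. DNAJB9, PDIA4 and GANAB held neither in these windows. The core of the XBP1 site, TGACGTGG, and the cyclic AMP response element TGACGTCA, which are found in 0.729% and 1.85% of the 35116 promoters, were in none of the 15. The stretches below show the ERSE and ERSE-II matches, and no test was run on their number. Each is written along the gene's own strand with 10 bases on either side, and capitals mark the fixed letters of the motif.
HSPA5, chr9:125241381-125241419, minus strand, motif 66 to 48 bases before the start: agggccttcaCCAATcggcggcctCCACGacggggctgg
HSP90B1, chr12:103930206-103930244, plus strand, motif 194 to 176 bases before the start: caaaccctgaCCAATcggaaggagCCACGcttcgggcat
HSP90B1, chr12:103930311-103930349, plus strand, motif reversed, 89 to 71 bases before the start: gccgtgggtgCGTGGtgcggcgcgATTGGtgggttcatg
XBP1, chr22:28800593-28800631, minus strand, motif 52 to 34 bases before the start: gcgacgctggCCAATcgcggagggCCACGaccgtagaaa
CALR, chr19:12938374-12938412, plus strand, motif reversed, beginning 225 bases before the start: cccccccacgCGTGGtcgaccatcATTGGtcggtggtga
CANX, chr5:179698768-179698806, plus strand, motif 189 to 171 bases before 1 of its starts: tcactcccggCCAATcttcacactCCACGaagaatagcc
HERPUD1, chr16:56932015-56932045, plus strand, ERSE-II 117 to 107 bases before the start: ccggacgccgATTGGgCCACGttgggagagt
SDF2L1, chr22:21642104-21642134, plus strand, ERSE-II reversed, 188 to 178 bases before the start: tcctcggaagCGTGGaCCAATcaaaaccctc

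**Figure D1:**
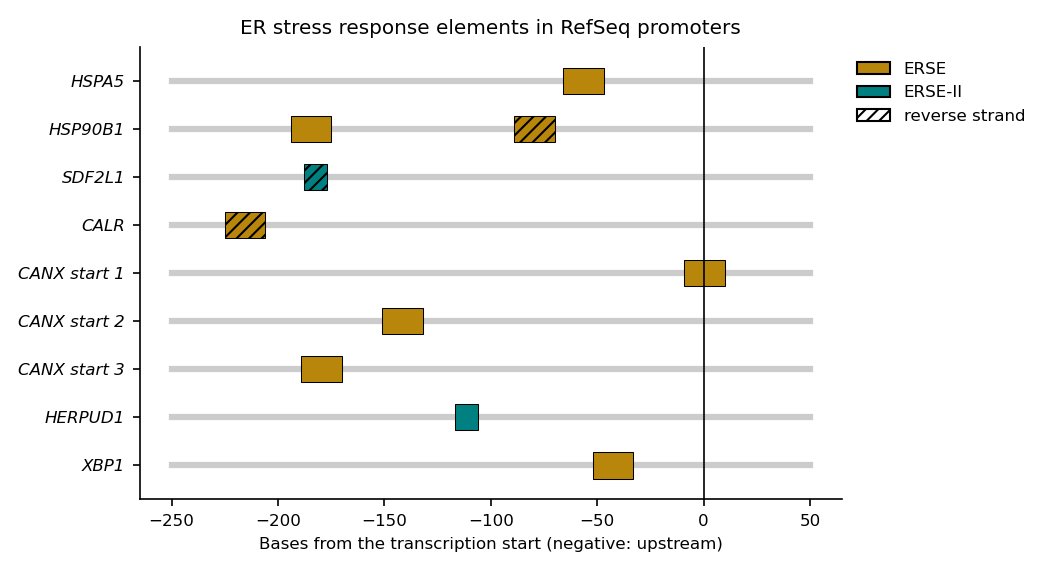
Position of ERSE and ERSE-II matches in RefSeq promoters of the 7 genes that hold one, in bases from the transcription start; hatching marks a match on the reverse strand. HSP90B1 holds 2 ERSE matches, and the 3 rows of CANX are the same match seen from 3 of its 4 annotated starts.

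Recovered reads summed over listed genes lay between 17608641 and 28980188 in the 5637 libraries. The range was 16384151 to 18868874 for 786-O. CBX7 was at 2.19, 2.17 and 2.42 FPKM in control and 1.86, 1.80 and 1.97 FPKM in shCBX7 libraries of 5637, and at 1.63, 1.75 and 1.49 against 1.01, 0.892 and 1.07 FPKM in 786-O. The shCBX7 arm was thus below the control arm in both lines, by limma (adjusted p = 0.0188 in 5637 and 0.00364 in 786-O). In 5637 that call was lost without shCBX7 replicate 2 (limma adjusted p = 0.0608) or without the control numbered 3 (limma adjusted p = 0.0586). The 5637 libraries expressed all 7 basal urothelial markers, while 8 of 8 renal tubule markers were under 1 FPKM. In 786-O 3 of 8 renal tubule markers reached 1 FPKM, among them PAX8, while LRP2, CUBN and SLC22A6 of the proximal tubule did not. The summed basal markers of 5637 rose from 683 to 689 FPKM in control to 924 to 939 FPKM in shCBX7 libraries, and the summed renal markers of 786-O went from 65.1 to 67.2 down to 45.9 to 46.4 FPKM. These sums move with the arms in the same libraries as the results below, and their part in those results was not tested. Of 6 leukocyte markers, 5 were under 1 FPKM in 5637 and 6 in 786-O. Luminal urothelial markers summed to 62.9 to 64.0 FPKM in 5637 control and 63.8 to 63.9 FPKM in shCBX7 libraries. GATA3 of this list was called lower in 5637 (log2 change -0.16, limma adjusted p = 0.0337). In 786-O the luminal sum went from 8.25 to 9.45 FPKM up to 12.8 to 15 FPKM, with PPARG called higher (log2 change 0.76). The other 2 luminal markers tested there, GATA3 (-0.25) and FOXA1 (-0.08), were not called. Fibroblast markers summed to 14.6 to 15.2 against 12.5 to 13.3 FPKM in 5637, where COL1A1 fell, and to 2.12 to 2.58 against 2.93 to 3.44 FPKM in 786-O, where LUM rose. Endothelial markers summed to 1.86 to 2.35 against 1.52 to 1.63 FPKM in 5637, where ESAM fell, and were all under 1 FPKM in 786-O. The part of these markers in the results below was likewise not tested. No label says whether an arm's libraries are separate cultures, so p-values cover only their spread, possibly a technical one. In bulk RNA, fewer cells of a kind and less RNA per cell cannot be told apart.

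After CBX7 silencing the ER chaperone genes moved mostly upward in both lines, by small amounts in 5637 and by up to 2.47 times in 786-O. In 5637, 6 of the 10 genes rose, 1 fell and 3 did not pass the test, where 24.4% of 12689 tested genes rose, 20.2% fell and 44.5% did either. In 786-O, 7 rose, none fell and 3 did not pass, where 24.7% of 13220 tested genes rose, 26.2% fell and 51.0% did either. A gene was called at a limma adjusted p under 0.05, on log2(FPKM + 1), which shrinks changes at low FPKM. All 10 passed the filter on low values in both lines. The median change of the 10 genes was 0.10 in 5637 and 0.50 in 786-O on the log2 scale, beside 0.01 and -0.01 over all tested genes. The arms did not overlap for 9 of the 10 genes in 5637, 8 with shCBX7 above, where 56.4% of tested genes did not overlap and 30.7% had shCBX7 above. In 786-O all 10 had shCBX7 above without overlap, where 60.3% of tested genes did not overlap and 29.2% had shCBX7 above. For these genes the two-sided exact permutation p was 0.1, the smallest that 3 against 3 libraries allow, and for HSP90B1 in 5637 it was 0.5.

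**Figure D2:**
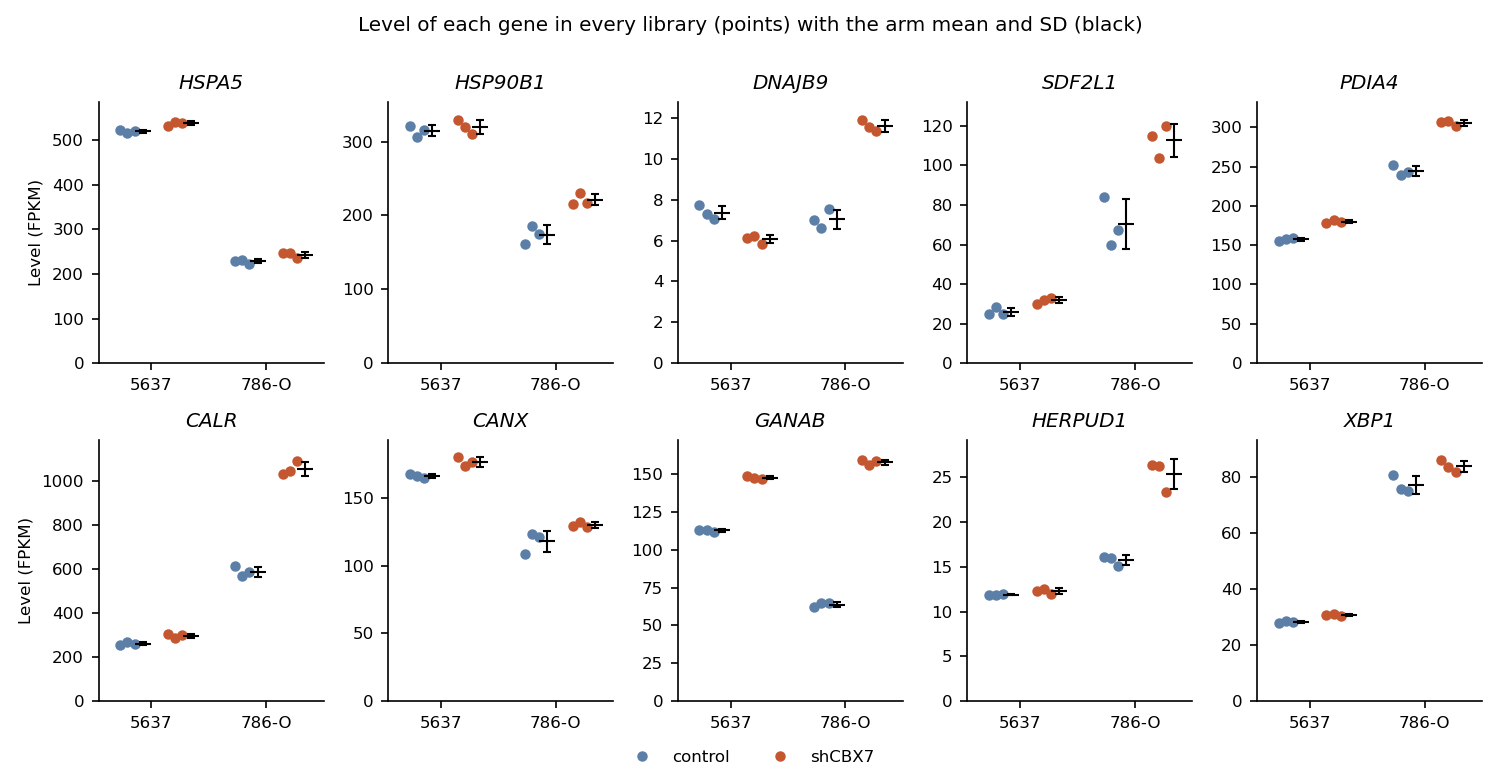
Level of the 10 genes in FPKM in each library (points), with the arm mean and SD of 3 libraries (black); values of the 2 lines come from tables normalized separately. CALR and GANAB in 786-O show the widest gaps between arms, and DNAJB9 goes in opposite directions in the 2 lines.

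Levels per length ran over a wide range. In 5637 control libraries HSPA5 was the most abundant of the 10 (521 ± 3.6 FPKM), followed by HSP90B1 (315 ± 7.3), CALR (261 ± 7.6), CANX (166 ± 1.5), PDIA4 (157 ± 1.8) and GANAB (113 ± 0.72 FPKM, SD, n = 3 each). XBP1 (28.3 ± 0.21) and SDF2L1 (25.9 ± 1.99 FPKM) were neighbours whose libraries overlapped, and HERPUD1 (11.9 ± 0.049) and DNAJB9 (7.37 ± 0.33 FPKM) were lowest. In 786-O control libraries CALR led (588 ± 22.7 FPKM), ahead of PDIA4 (244 ± 6.6), HSPA5 (229 ± 4.5), HSP90B1 (174 ± 12.6) and CANX (118 ± 7.9 FPKM). XBP1 (77.1 ± 3.14), SDF2L1 (70.4 ± 12.6) and GANAB (63.8 ± 1.62 FPKM) lay close together there, with SDF2L1 overlapping both of the others. HERPUD1 (15.8 ± 0.59) and DNAJB9 (7.05 ± 0.47 FPKM) were again lowest (SD, n = 3 each). The tables were normalized separately, so levels are ordered within a line only. The fewest reads stood behind DNAJB9, with 344 to 612 in the libraries of 5637 and 331 to 640 in those of 786-O, and HSPA5 had 41233 to 68652 and 14416 to 18255.

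HSPA5, the lumenal HSP70 whose induction is the usual sign of an unfolded protein response, differed little between arms. In 5637 it was at 523, 517 and 522 FPKM in control and 533, 542 and 540 FPKM in shCBX7 libraries. The arms were separate, yet the log2 change of 0.05 (SE 0.020) did not pass limma (adjusted p = 0.0869). In 786-O the control libraries held 229.7, 232 and 224 FPKM and the shCBX7 libraries 246, 246 and 235 FPKM. Again every shCBX7 library was above every control library, and the log2 change of 0.09 (SE 0.042) did not pass limma (adjusted p = 0.126). It passed with voom on recovered reads in 5637 (limma adjusted p = 0.0211) and with quantile normalization in 786-O (limma adjusted p = 0.0345), at log2 changes of 0.05 and 0.12. HSPA5 lies on chromosome 9 from 125234853 to 125241330.

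HSP90B1, the lumenal HSP90 that folds integrins and Toll-like receptors among others, rose in 786-O. Its levels in 5637 were 321, 307 and 316 FPKM in control and 329, 319 and 311 FPKM in shCBX7 libraries. These arms overlapped (log2 change 0.02, SE 0.029, limma adjusted p = 0.542). With quantile normalization the change in 5637 was 0.10 and passed (limma adjusted p = 0.0397). In 786-O it went from 161, 186 and 175 to 216, 229.8 and 217 FPKM, 1.27 times the control mean (log2 change 0.35, SE 0.061, limma adjusted p = 0.00251). The difference between the changes, 786-O minus 5637, was 0.32 (SE 0.069, limma interaction adjusted p = 0.00201). With quantile normalization that difference was 0.24 and did not pass (limma adjusted p = 0.0565).

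DNAJB9 (ERdj4), a J-domain partner that brings substrates to BiP and restrains IRE1, fell in 5637 and rose in 786-O. In 5637 it was at 7.73, 7.29 and 7.08 FPKM in control and 6.13, 6.25 and 5.84 FPKM in shCBX7 libraries, so every shCBX7 library lay lower. The mean fell by 17.6% (log2 change -0.24, SE 0.038, limma adjusted p = 0.00240). In 786-O the values were 6.99, 6.61 and 7.54 FPKM against 11.9, 11.6 and 11.3 FPKM. All shCBX7 libraries were higher there, 1.65 times the control mean (log2 change 0.65, SE 0.057, limma adjusted p = 8.23e-05). The changes differed by 0.89 between lines (SE 0.067, limma interaction adjusted p = 7.05e-07). The gene, on chromosome 7 from 108569568 to 108574850, overlaps THAP5 by 183 bases and PNPLA8 by 99 bases on the other strand, and the strand setting of the counts is not given in the sources used here. THAP5 went from 7.38 to 7.89 FPKM in 5637 and from 3.55 to 5.2 FPKM in 786-O, and its part in the DNAJB9 values was not tested.

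SDF2L1, a small lumenal protein that works with ER J-domain proteins at BiP, rose in both lines. Its 5637 libraries held 24.8, 28.2 and 24.8 FPKM in control and 30.1, 32.1 and 32.96 FPKM after silencing. The arms were separate, and the shCBX7 mean was 1.22 times the control mean (log2 change 0.28, SE 0.056, limma adjusted p = 0.00621). In 786-O it was at 84.3, 59.8 and 67.3 FPKM against 115, 104 and 119.9 FPKM. Control library 1 was the highest of the controls, and the arms still did not overlap (1.60 times, log2 change 0.68, SE 0.12, limma adjusted p = 0.00249). The difference between lines, 0.40 (SE 0.15, limma interaction adjusted p = 0.0394), was lost in 10 of 18 alternatives, with limma adjusted p-values up to 0.103. They include leaving out any single library apart from 5637 controls 1 and 3, 786-O control 1 and 786-O shCBX7 replicate 2. Without 786-O control 1 the difference was 0.54 (limma adjusted p = 0.00134).

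PDIA4 (ERp72), a disulphide isomerase with several thioredoxin-like domains, rose in both lines. In 5637 it went from 156, 157 and 159 FPKM in control to 179, 182 and 179.7 FPKM in shCBX7 libraries, 1.14 times the control mean (log2 change 0.19, SE 0.019, limma adjusted p = 3.58e-04). The spread within each arm was a small part of that step. In 786-O it went from 252, 239 and 242 to 307, 308 and 301 FPKM (log2 change 0.32, SE 0.041, limma adjusted p = 5.03e-04). The change in 786-O was the larger by 0.13 (SE 0.038, limma interaction adjusted p = 0.0152).

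CALR, the soluble lectin chaperone that also buffers ER calcium, nearly doubled in 786-O. Its control libraries held 612, 567 and 586 FPKM and its shCBX7 libraries 1030.3, 1044 and 1089 FPKM, far outside the spread within either arm. The mean was 1.79 times the control level (log2 change 0.84, SE 0.048, limma adjusted p = 1.22e-05). In 5637 it was at 255, 269.6 and 259.6 FPKM in control and 306, 286 and 298 FPKM after silencing, 1.14 times (log2 change 0.18, SE 0.033, limma adjusted p = 0.00410). The difference between the changes was 0.66 (SE 0.055, limma interaction adjusted p = 1.62e-06). CANX, the membrane-bound lectin of the same cycle, moved less. In 5637 it went from 168, 166 and 165 to 180.1, 173 and 176 FPKM (log2 change 0.09, SE 0.021, limma adjusted p = 0.0145), a call lost without the control numbered 3 (limma adjusted p = 0.0557). In 786-O it was at 109, 123 and 121 FPKM in control and 129, 132 and 128 FPKM in shCBX7 libraries. Those arms were separate, but the log2 change of 0.14 (SE 0.056) did not pass limma (adjusted p = 0.0721). It passed with voom on recovered reads (0.15, limma adjusted p = 0.0209) and in none of the other 12 alternatives, and the change was 0.08 without control replicate 1 (limma adjusted p = 0.0899). Within a library, the ratio of CALR to CANX was 4.59 to 5.62 in control and 7.90 to 8.48 in shCBX7 libraries of 786-O, and 1.52 to 1.62 against 1.65 to 1.70 in 5637.

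GANAB, the catalytic subunit of glucosidase II, had the largest rise of the 10 genes in both lines. In 786-O its level was 61.9, 64.7 and 64.7 FPKM in control and 159, 156 and 158 FPKM in shCBX7 libraries, 2.47 times the control mean (log2 change 1.29, SE 0.040, limma adjusted p = 9.80e-07). By the size of its change it ranked 204 among 13220 tested genes. In 5637 it went from 113, 113 and 112 to 149, 147 and 147 FPKM, 1.31 times (log2 change 0.39, SE 0.017, limma adjusted p = 2.35e-05), rank 528 of 12689. No libraries of the arms overlapped in either line, and the changes differed by 0.91 (SE 0.038, limma interaction adjusted p = 7.73e-09). PRKCSH, the regulatory subunit of the same enzyme, rose less, from 63.5 ± 1.5 to 69.9 ± 1.4 FPKM in 5637 and from 63.4 ± 2.9 to 84.2 ± 1.7 FPKM in 786-O (SD, n = 3 each). Its limma adjusted p-values were 0.00472 and 3.33e-04. The ratio of GANAB to PRKCSH within a library was 1.73 to 1.81 in control and 2.08 to 2.14 in shCBX7 libraries of 5637, and 0.934 to 1.07 against 1.86 to 1.89 in 786-O. This pair of ratios was chosen after the values were seen. GANAB lies on chromosome 11 from 62624826 to 62646726, and no other gene of the 786-O table overlaps it.

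HERPUD1, a membrane protein of the complex that sends misfolded proteins to the proteasome, rose in 786-O. It was at 16.1, 16.04 and 15.1 FPKM in control and 26.4, 26.2 and 23.4 FPKM in shCBX7 libraries, 1.61 times (log2 change 0.65, SE 0.060, limma adjusted p = 1.05e-04). In 5637 the values were 11.9, 11.8 and 11.9 FPKM against 12.3, 12.6 and 11.96 FPKM. The shCBX7 libraries were just above the controls, with a log2 change of 0.04 (SE 0.024, limma adjusted p = 0.189). The difference between lines was 0.61 (SE 0.065, limma interaction adjusted p = 1.20e-05).

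XBP1, the transcription factor of the IRE1 branch, rose slightly in 5637, from 28.0, 28.5 and 28.3 to 30.9, 31.2 and 30.6 FPKM (log2 change 0.12, SE 0.018, limma adjusted p = 0.00185). In 786-O it was at 80.7, 75.6 and 74.9 FPKM in control and 86.0, 83.6 and 81.9 FPKM in shCBX7 libraries. The arms were separate, and a log2 change of about the same size, 0.12 (SE 0.047), did not pass limma (adjusted p = 0.0648). It passed in 3 alternatives, voom on recovered reads (limma adjusted p = 0.0338), without control replicate 1 (0.0167) and with the replicate block (0.0468). The difference between lines was -0.004 (SE 0.047, limma interaction adjusted p = 0.953).

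**Figure D3:**
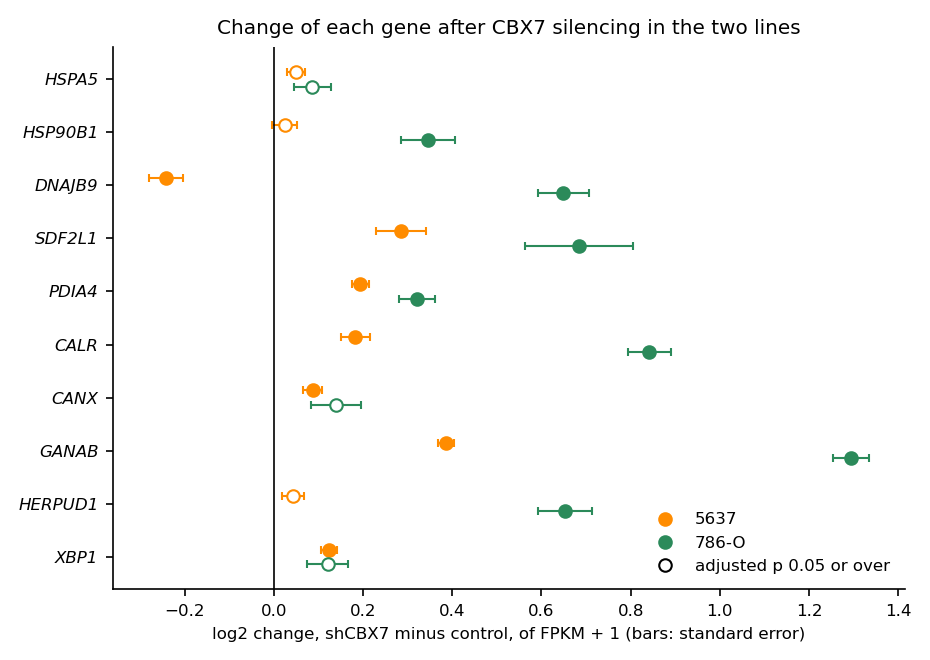
Log2 change (shCBX7 minus control, FPKM + 1) of the 10 genes in 5637 and 786-O with its standard error; open symbols did not pass a limma adjusted p of 0.05. GANAB, at 0.39 and 1.29, lies farthest to the right in both lines, DNAJB9 lies on opposite sides of 0, and HSPA5, CANX and XBP1 lie close together in the 2 lines.

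For 7 of the 10 genes the change differed between lines by the interaction test, in each case with the larger value in 786-O, where 24.3% of 12777 tested genes had a larger value in 786-O, 29.0% a smaller one and 53.3% either. HSPA5 (difference 0.04, SE 0.039), CANX (0.05, SE 0.060) and XBP1 did not pass (limma interaction adjusted p = 0.448, 0.478 and 0.953). By promoter, the 5 genes with an ERSE changed by 0.02 to 0.18 in 5637 and by 0.09 to 0.84 in 786-O on the log2 scale. The ERSE-II genes HERPUD1 and SDF2L1 changed by 0.65 and 0.68 in 786-O, and the 3 genes with neither motif by 0.32 to 1.29. The ranges of genes with and without a motif overlapped in both lines.

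Counts in the pathway lists that follow are to be read against the shares of all tested genes, 24.4% higher and 20.2% lower in 5637 and 24.7% higher and 26.2% lower in 786-O. The sensors come first. ERN1, which encodes IRE1, rose in 786-O from 0.879 ± 0.146 to 1.37 ± 0.035 FPKM (log2 change 0.34, limma adjusted p = 0.0103). In 5637 it was 5.97 ± 0.069 FPKM in control and 5.59 ± 0.23 FPKM in shCBX7 libraries (limma adjusted p = 0.0828), which passed with quantile normalization (limma adjusted p = 0.0210) and with voom (0.0265) on the lower side. EIF2AK3, which encodes PERK, was at 3.61 ± 0.60 and 3.50 ± 0.13 FPKM in 786-O and at 5.15 ± 0.093 and 4.90 ± 0.55 FPKM in 5637 (SD, n = 3), neither passing. ATF6 was at 4.74 ± 0.20 and 4.20 ± 0.35 FPKM in 786-O and at 11.3 ± 0.44 and 12.1 ± 0.14 FPKM in 5637, also short of the threshold (limma adjusted p = 0.115 and 0.0561). In 5637 ATF6 passed with voom (limma adjusted p = 0.0243) and without the control numbered 3 (0.0357). Of the whole list of sensors and regulators, 4 of 10 tested rose and 1 fell in 5637, and 3 of 12 rose and 5 fell in 786-O, where the share that rose was that of all tested genes. MBTPS1, a protease that releases ATF6, rose in both lines, from 12.4 ± 0.42 to 13.8 ± 0.28 FPKM in 5637 and from 9.25 ± 0.59 to 12.1 ± 0.31 FPKM in 786-O. MBTPS2 of the same list rose in 5637 (log2 change 0.14, limma adjusted p = 0.0138) and fell in 786-O (-0.20, limma adjusted p = 0.0295). Its call in 786-O was lost in 6 of 13 alternatives. CREB3, another membrane-bound factor, rose in 786-O from 46.2 ± 2.6 to 62.2 ± 2.1 FPKM, and in 5637 its rise was lost in 4 of 13 alternatives. CREB3L2, a relative of ATF6, rose in 5637 (10.0 ± 0.73 to 11.9 ± 0.31 FPKM) and fell in 786-O (12.7 ± 1.1 to 8.35 ± 0.12 FPKM). WFS1, a membrane protein of ER calcium balance, fell in 786-O from 31.7 ± 1.7 to 22.6 ± 0.93 FPKM. TMBIM6, an ER membrane protein that protects from cell death, fell in 5637 from 126 ± 2.3 to 112 ± 1.95 FPKM and in 786-O from 165 ± 3.4 to 131 ± 5.9 FPKM.

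Partners of BiP and secreted factors of the response rose in 6 of 12 and fell in 1 in 5637 (2 without the control numbered 3 or without shCBX7 2), and rose in 6 of 11 and fell in 1 in 786-O. The exception in 786-O was HYOU1, the large HSP70 relative that recharges BiP with nucleotide, whose promoter holds an ERSE-II. It went from 25.7, 26.8 and 25.8 FPKM to 11.6, 11.9 and 12.4 FPKM there (log2 change -1.07, SE 0.046, limma adjusted p = 3.86e-06). In 5637 it rose from 27.7 ± 0.66 to 30.9 ± 0.52 FPKM (limma adjusted p = 0.00279), and the difference between lines was -1.22 (SE 0.048, limma interaction adjusted p = 5.68e-09). SIL1, the other exchange factor of BiP, rose in both lines, from 2.78 ± 0.13 to 3.41 ± 0.19 FPKM in 5637 and from 18.6 ± 0.97 to 23.8 ± 0.12 FPKM in 786-O. The disulphide reductase DNAJC10 rose from 3.57 ± 0.068 to 4.69 ± 0.13 FPKM in 5637 and from 6.03 ± 0.52 to 8.94 ± 0.34 FPKM in 786-O. CRELD2, a secreted stress factor whose promoter holds an ERSE, rose from 5.85 ± 0.31 to 7.41 ± 0.29 FPKM in 5637 and from 11.4 ± 1.5 to 16.3 ± 0.88 FPKM in 786-O. The trophic factor MANF was at 46.4 ± 3.2 and 54.0 ± 1.9 FPKM in 5637, a rise (limma adjusted p = 0.0118), and at 49.0 ± 0.63 and 52.7 ± 3.3 FPKM in 786-O (limma adjusted p = 0.156, all SD, n = 3). Without shCBX7 replicate 1 the change of MANF in 786-O passed (limma adjusted p = 0.0478).

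Oxidative folding enzymes rose in 11 of 15 and fell in 1 in 786-O, with a list median of 0.35 beside -0.01 over all tested genes. ERO1A, the oxidase that recharges disulphide isomerases, went from 13.3, 14.9 and 13.4 to 30.8, 32.3 and 30.8 FPKM (log2 change 1.12, SE 0.055, limma adjusted p = 6.43e-06). The peroxidase PRDX4 rose from 79.8 ± 4.7 to 151 ± 4.5 FPKM, and the isomerases PDIA3 and P4HB from 146 ± 3.8 to 204 ± 3.8 FPKM and from 214 ± 12.1 to 273 ± 6.0 FPKM. QSOX1, an oxidase that acts mostly in the Golgi and outside cells, fell from 69.0 ± 5.9 to 35.7 ± 0.36 FPKM. In 5637, 6 of 14 rose and 1 fell, with a median of 0.08. The count in 5637 is not firm. PDIA3 (140 ± 2.8 to 148 ± 1.9 FPKM), P4HB (154 ± 1.1 to 163 ± 2.1 FPKM) and PDIA6 are 3 of the 6, and their calls (limma adjusted p = 0.0269, 0.0138 and 0.0434) were lost in 9, 2 and 11 of 13 alternatives. Only 3 genes rose there without the control numbered 3, and likewise with the replicate block. In 786-O the PDIA6 call (limma adjusted p = 0.0385) was lost in 8 of 13. PRDX4 had the largest rise of the list in 5637, from 42.8 ± 1.2 to 60.3 ± 1.6 FPKM (log2 change 0.49, limma adjusted p = 6.22e-05), and ERO1A went from 24.0 ± 0.33 to 27.3 ± 0.86 FPKM. ERP44, which retains ERO1A in the ER, rose from 22.7 ± 0.32 to 24.9 ± 0.48 FPKM. Of the prolyl isomerases, 3 of 7 rose in 5637 and 3 of 6 in 786-O, PPIB, FKBP7 and FKBP9 in both, with the FKBP9 call in 786-O lost in 4 of 13 alternatives. PPIB rose from 76.4 ± 0.30 to 85.4 ± 1.4 FPKM and from 155 ± 12.3 to 236 ± 5.8 FPKM. FKBP14 fell in 786-O from 6.68 ± 0.18 to 2.86 ± 0.24 FPKM (all SD, n = 3).

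Other genes of glycan trimming and the calnexin cycle went both ways. In 5637, 3 of 11 rose and 4 fell, and in 786-O 3 rose and 3 fell. The shares in 786-O were near those of all tested genes. In 5637 only 2 fell in 5 of the alternatives, 2 of them leaving out the control numbered 2 or shCBX7 replicate 1. UGGT1, which puts glucose back on unfolded glycoproteins, rose in 5637 from 16.2 ± 0.33 to 18.8 ± 0.16 FPKM and was at 6.10 ± 0.68 and 5.59 ± 0.26 FPKM in 786-O (limma adjusted p = 0.311, or 0.0329 on the lower side without control replicate 1). The mannosidase MAN1B1, which marks glycoproteins for disposal, fell in 786-O from 19.2 ± 1.4 to 8.49 ± 0.15 FPKM (log2 change -1.08, limma adjusted p = 1.12e-05). The cargo receptor LMAN1 fell in 5637 from 67.6 ± 0.59 to 58.3 ± 1.7 FPKM, and the calcium binder RCN1 from 19.7 ± 0.38 to 16.4 ± 0.88 FPKM. CLGN, a relative of CANX, rose in 786-O from 2.07 ± 0.56 to 4.67 ± 0.48 FPKM (limma adjusted p = 0.00105). Subunits of oligosaccharyltransferase, which attaches glycans, rose in 2 of 12 and fell in 0 in 5637 and rose in 5 and fell in 3 of 12 in 786-O. Only 3 rose in 786-O without control 3, shCBX7 1 or shCBX7 2. The share that rose in 5637 was below that of all tested genes, and the share that fell in 786-O was near it. The catalytic subunit STT3B fell in 786-O from 45.2 ± 2.9 to 19.3 ± 1.1 FPKM (log2 change -1.18, limma adjusted p = 9.22e-06), while in 5637 it was at 48.1 ± 1.4 and 47.2 ± 1.4 FPKM (limma adjusted p = 0.493). DDOST rose in 5637 from 99.0 ± 2.0 to 108 ± 1.4 FPKM, MAGT1 in 5637 from 22.6 ± 0.55 to 25.4 ± 0.98 FPKM and RPN1 in 786-O from 148 ± 8.1 to 186 ± 2.7 FPKM. TMEM258 fell in 786-O from 28.3 ± 2.1 to 18.4 ± 1.7 FPKM (all SD, n = 3).

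In ER-associated degradation, the process HERPUD1 serves, 13 of 22 genes rose and 3 fell in 5637, and 7 rose and 7 fell in 786-O, with list medians of 0.09 and -0.01. With median centring 5 fell in 5637. The genes that rose in 5637 numbered 9 to 13 over the 13 alternatives, and the calls of EDEM3 and EDEM1 there were lost in 10 and 9 of them. EDEM2, which helps to pick misfolded glycoproteins, rose in 786-O from 41.5 ± 2.8 to 64.5 ± 1.7 FPKM. DERL1, a channel component, rose in 5637 from 14.3 ± 0.22 to 16.3 ± 0.15 FPKM, while UFD1, a cofactor of VCP, fell there from 11.7 ± 0.21 to 9.46 ± 0.20 FPKM. TRAM1, a translocation protein of this list, fell in 786-O from 92.1 ± 4.2 to 61.7 ± 2.9 FPKM. UBXN4, which recruits the ATPase VCP to the ER, rose in 5637 (32.6 ± 0.28 to 38.0 ± 0.25 FPKM) and fell in 786-O (15.8 ± 1.6 to 8.35 ± 0.49 FPKM). For translocation into the ER, 7 of 18 genes rose and 0 fell in 5637, and 4 rose and 5 fell in 786-O. The 7 in 5637 became 3 or 4 when any single library other than shCBX7 1 was left out, and 1 gene fell without shCBX7 1. SRPRA, a subunit of the receptor of the signal recognition particle, fell in 786-O from 47.1 ± 1.1 to 19.7 ± 0.48 FPKM (log2 change -1.21, limma adjusted p = 1.74e-06), and its partner SRPRB from 19.7 ± 1.0 to 11.8 ± 0.98 FPKM. In 5637 the signal peptidase subunit SPCS3 rose from 16.1 ± 0.29 to 18.4 ± 0.76 FPKM, SPCS2 from 30.8 ± 0.31 to 34.1 ± 0.72 FPKM and SPCS1 from 9.49 ± 0.24 to 10.6 ± 0.072 FPKM. SEC11A of the same enzyme rose in 786-O from 25.0 ± 0.42 to 35.7 ± 0.68 FPKM. Of the COPII coat and cargo receptors, 4 of 18 rose and 5 fell in each line, with 3 falling in 5637 without shCBX7 3. These shares were near those of all tested genes. SEC31A of the coat fell in both, from 13.2 ± 0.24 to 11.8 ± 0.25 FPKM in 5637 and from 14.7 ± 0.98 to 8.34 ± 0.27 FPKM in 786-O. In 5637 SEC24A of the coat fell from 9.60 ± 0.17 to 8.32 ± 0.29 FPKM and the cargo receptor TMED2 rose from 50.1 ± 0.58 to 57.7 ± 0.21 FPKM. TMED10 rose in 786-O from 53.0 ± 1.2 to 81.3 ± 2.5 FPKM and MCFD2 from 30.8 ± 0.37 to 43.2 ± 1.4 FPKM (all SD, n = 3).

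**Figure D4:**
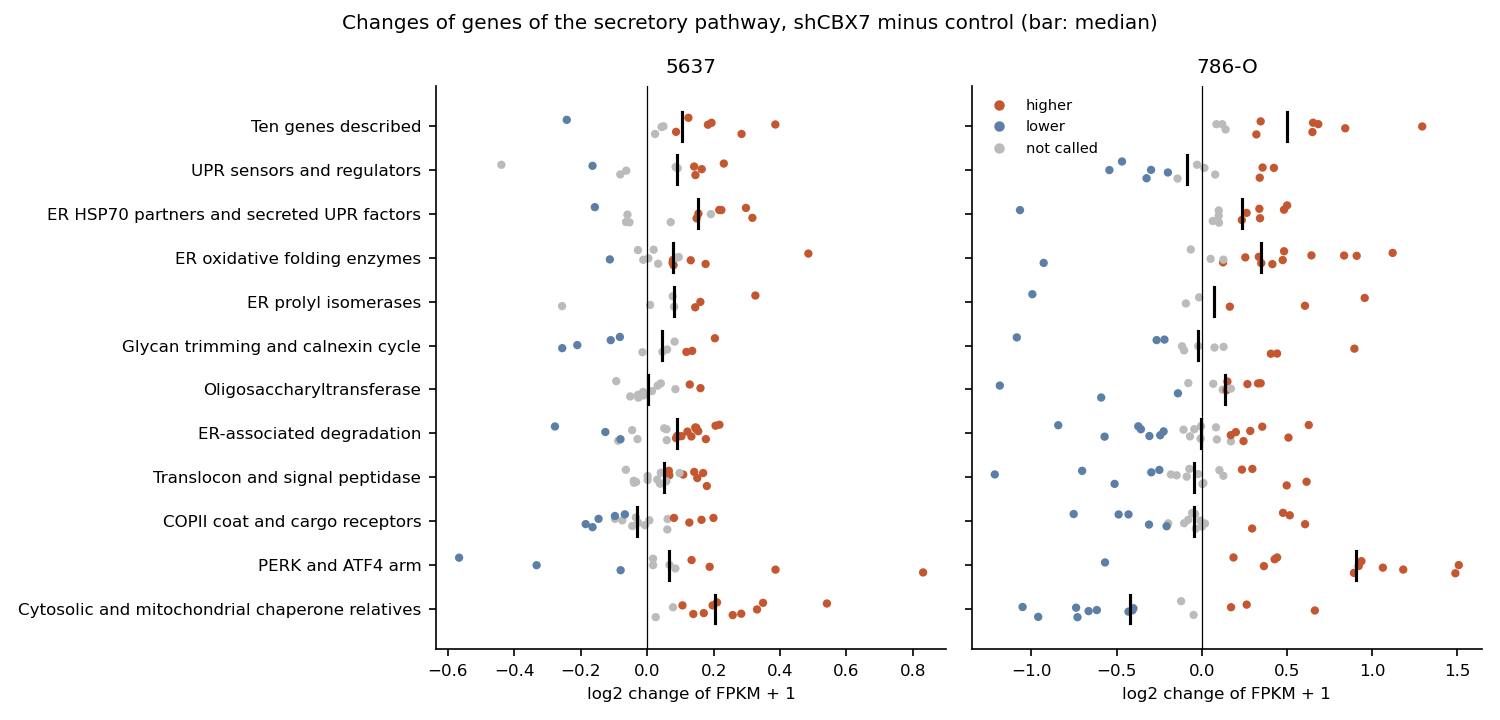
Log2 change (shCBX7 minus control, FPKM + 1) of each tested gene of 11 lists and of the 10 genes described, in 5637 (left) and 786-O (right, wider axis); bars are medians. In 786-O the PERK and ATF4 arm lies to the right, with a median of 0.91, and the chaperone relatives outside the ER to the left, with a median of -0.42.

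The PERK and ATF4 arm was the list with the highest median in 786-O, where 11 of 12 genes rose and 1, CHAC1, fell (log2 change -0.57, limma adjusted p = 0.00257), with a median of 0.91. The name is only that of the list, and whether PERK acted on these genes was not tested. EIF2AK3, which encodes PERK, passed in neither line. DDIT3 (CHOP), the death-linked factor of this arm, went from 18.5, 19.0 and 20.5 to 54.6, 58.5 and 54.9 FPKM (log2 change 1.49, SE 0.054, limma adjusted p = 1.88e-06). ATF4 itself rose from 279 ± 18.0 to 379 ± 9.9 FPKM, and PPP1R15A, which reverses the block on translation, from 26.8 ± 1.5 to 62.0 ± 1.5 FPKM. The stress protein NUPR1 rose from 14.99 ± 1.06 to 44.5 ± 2.3 FPKM. In 5637, 4 of 11 rose and 3 fell (median 0.07). TRIB3, a pseudokinase induced by ATF4 and CHOP, rose by about the same factor in both lines, from 8.45 ± 0.080 to 15.8 ± 0.20 FPKM in 5637 (1.87 times, log2 change 0.83, limma adjusted p = 4.24e-06) and from 46.2 ± 3.7 to 86.5 ± 2.4 FPKM in 786-O (1.87 times, log2 change 0.89, limma adjusted p = 2.73e-05). PPP1R15B, the constitutive paralogue of PPP1R15A, fell in 5637 from 57.2 ± 0.58 to 38.3 ± 0.27 FPKM, and the factor CEBPB from 238 ± 1.9 to 188 ± 7.6 FPKM. In 786-O CEBPB rose from 121 ± 14.7 to 156 ± 9.9 FPKM, and a rise of PPP1R15B was lost in 7 of 13 alternatives. Also in 5637 were DDIT3 at 14.7 ± 1.8 and 19.4 ± 0.82 FPKM, a rise, and ATF4 at 136 ± 2.0 and 128 ± 0.63 FPKM, a fall (limma adjusted p = 0.00669 and 0.0121, SD, n = 3).

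Among chaperones of the same families, mostly outside the ER, HSP90AA1, HSPA4, HSPA8, HSPD1 and HSPE1 rose in 5637 and fell in 786-O. DNAJA1, DNAJB1 and SERPINH1 rose in both lines. How many of all tested genes were called in opposite directions, or upward in both lines, was not counted. Of this list, 10 of 12 rose and 0 fell in 5637 (median 0.20), and 3 of 14 rose and 9 fell in 786-O (median -0.42). HSP90AA1, the inducible cytosolic relative of HSP90B1, rose in 5637 from 410.4, 403 and 407 to 528, 514 and 513 FPKM and fell in 786-O from 212, 244 and 232 to 109, 112 and 109 FPKM. The difference between its changes was -1.40 (SE 0.061, limma interaction adjusted p = 1.14e-08). HSPA8, the constitutive cytosolic relative of HSPA5, rose in 5637 from 199 ± 2.3 to 219 ± 3.0 FPKM and fell in 786-O from 322 ± 4.1 to 193 ± 6.5 FPKM, a difference of -0.88 (SE 0.042, limma interaction adjusted p = 2.11e-08). The mitochondrial chaperonin HSPD1 fell in 786-O from 156 ± 8.9 to 79.9 ± 4.5 FPKM. HSPH1, a nucleotide exchange factor of HSP70, rose in 5637 from 81.4 ± 0.34 to 103 ± 2.1 FPKM and was at 15.6 ± 1.8 and 14.2 ± 0.51 FPKM in 786-O (limma adjusted p = 0.262). The cytosolic J-domain protein DNAJA1 rose from 92.4 ± 0.70 to 111 ± 1.1 FPKM in 5637 and from 107 ± 1.7 to 121 ± 3.1 FPKM in 786-O, the latter lost without shCBX7 replicate 2 (limma adjusted p = 0.0508). DNAJB1 rose from 132 ± 2.2 to 142 ± 1.8 FPKM and from 52.4 ± 3.0 to 63.0 ± 0.18 FPKM. SERPINH1, the collagen chaperone of the ER included in this list, rose in both lines, from 27.7 ± 0.77 to 40.7 ± 0.20 FPKM in 5637 and from 89.5 ± 8.3 to 142 ± 4.7 FPKM in 786-O (SD, n = 3). Genes such as HSPA8, HSP90AA1 and HSPD1 have pseudogene copies that can share reads, so their values are less certain. Those copies were not examined, and sharing of reads with pseudogenes was not tested for the 10 genes described either.

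The genes whose libraries followed HSPA5 most closely were UNC50 (Pearson r = 0.948), OCIAD1 (0.937), GTF3A (0.929), TM9SF2 (0.925) and CDK2AP1 (0.917). The measure was taken over the 12 libraries on log2(FPKM + 1), with each gene set to its control mean within its line, among 2957 genes averaging 10 FPKM or more in both lines. These points share their libraries and their arms, so r is a description. Of the 8 other genes described here that met the level, PDIA4 was nearest to HSPA5 (r = 0.88, rank 32) and CANX farthest (r = 0.698, rank 560).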

How the data were processed

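FPKM (fragments scaled to gene length and library size), 1 value per gene and library, were deposited by the authors in 1 table per line, per the file headers. Libraries were made with a directional kit, per the labels' protocols. For aligner, counter and strand, the setting is not given in the sources used here. The submitters' processing notes list the mouse build mm10 for these human samples. For 786-O, 58724 of 58735 identifiers have the start and end of GENCODE release 29 (GRCh38). The authors' gene_length column (other values, in bases, as deposited) is in the 786-O table only. Of 29890 symbols for 5637, 29854 (99.9%) are in that table.

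Samples were grouped by title and by the cell line and genotype labels. The 3 control columns of 5637, which the table calls SiNC, could be tied to the group only, and 2 control titles carry another number than 5637. Columns of the silenced libraries are named Si in 5637 and si in 786-O, while the titles say shCBX7. Which kind of silencing RNA was used is not settled by these names. Columns left without a group numbered 0, and identical pairs of libraries numbered 0 of 15 in each line.

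Genes averaging 0.5 FPKM or more in a line's 6 libraries were tested on log2(FPKM + 1) with limma 3.58.1 (R 4.3.3, eBayes with trend), shCBX7 minus control, adjusted after Benjamini and Hochberg over all tested genes. An interaction term fitted to all 12 libraries gave the line difference. Each FPKM times gene length was checked for being a whole multiple of the value of 1 read (tolerance 0.01). This held in all 6 libraries for 100% of listed genes in 786-O and 93.9% in 5637, GANAB not among the latter. These reads served for depth and for a voom alternative. In 786-O control 1 they summed to 16961808, above the library total of 16693519 that its FPKM imply. The 786-O FPKM were thus not scaled by the plain total of these reads, and how they were scaled is not given in the sources used here. Same-numbered libraries correlated in their deviations at 0.057 to 0.083 in 786-O and -0.031 to 0.023 in 5637. In 786-O each shCBX7 library was nearest to the control of its own number, in 5637 only shCBX7 1. These correlations are low and do not settle whether the 786-O libraries were paired. Numbers were not taken as pairs, and the replicate block was run as an alternative. The fits were tested on simulated data.

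The members and lists were chosen with earlier results of these data known, so no test was run over a list. Named genes are the 10 members, up to 3 called genes with the smallest p per list and line, and 5 genes most like HSPA5. Other named list genes, the partner ratios and the genes with a promoter motif were picked after their values were seen. Promoters are RefSeq's (GRCh38.p14). Proteins were not analysed here. Alternatives tried were a pseudocount of 0.1, no low-value filter, quantile normalization, median centring, no trend, voom, each library left out and the replicate block.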

Additional observations from a re-analysis of the deposited data

Results flagged for a closer look

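In each of the following 10 results the change after CBX7 silencing differed between the 2 lines by the interaction test (limma). Values are the 786-O change minus the 5637 change on the log2 scale. The related chaperones among them were picked from longer lists. Of the 10 genes described, GANAB (0.91), DNAJB9 (0.89), CALR (0.66), HERPUD1 (0.61), SDF2L1 (0.40), HSP90B1 (0.32) and PDIA4 (0.13) had the larger value in 786-O. DNAJB9 is the member that passed in both lines in opposite directions. Of the chaperones related to them, HYOU1 (-1.22), HSP90AA1 (-1.40) and HSPA8 (-0.88) had the smaller value in 786-O, where each fell while it rose in 5637. Over all 12777 genes tested, 53.3% differed between lines by this test. Other genes of the lists differed by as much as most of these, among them PPP1R15A (1.16), DDIT3 (1.1), HSPD1 (-1.17) and SRPRA (-1.15). The difference of SDF2L1 was lost in 10 of 18 alternatives, and that of HSP90B1 with quantile normalization.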

How the results depend on the processing

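The number of the 10 genes called was 7 in 5637 (6 to 8 over the alternatives), 7 in 786-O (7 to 9) and 7 for the difference between lines (5 to 7). With the replicate block, 7 were called in 5637 and 8 in 786-O, where XBP1 was added, and no other call of the 10 genes changed. No direction of the 10 genes turned within a line in the 13 alternatives of each line (12 for GANAB in 5637, which voom lacks). For the difference between lines, that of CANX ranged from -0.003 (without 786-O control replicate 1) to 0.087 when 1 library was left out, and that of XBP1 from -0.023 to 0.029, and it was 0.031 with median centring. Over all 18 alternatives the XBP1 difference ranged from -0.082 to 0.031. None of these passed the test (smallest limma interaction adjusted p = 0.105 for XBP1). EIF2AK3, not called, ranged from -0.131 to 0.004 in 5637 (the latter without shCBX7 replicate 1) and from -0.13 to 0.057 in 786-O (without control replicate 2). The cause was not tested. Of the pathway lists, those counts that moved by over 1.5 times were mostly in 5637, and include the sensors, where 2 in place of 1 fell with quantile normalization or voom, the BiP partners, where 2 fell with median centring, the glycan genes that fell (2 without the filter, without the trend or with voom) and the translocon genes that rose (4 without the filter, without the trend or with median centring). The scalings moved the median of all genes by under 0.1. With fewest reads, DNAJB9 has the least depth of the 10.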

Other observations

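Of the 25 gene symbols with an ERSE in a RefSeq promoter, 20 were not among the genes described above. Symbols were counted separately, and whether neighbouring genes share a site was not examined. In 5637, 11 of these passed the filter on low values, of which 4 rose and 4 fell (median log2 change -0.01 beside 0.01 over all tested genes, of which 24.4% rose and 20.2% fell). In 786-O, 10 passed the filter, of which 5 rose and 3 fell (median 0.13 beside -0.01, with 24.7% of all tested genes rising and 26.2% falling). Of 17 other symbols with an ERSE-II, 12 passed the filter in 5637, of which 4 rose and 4 fell (median 0.03), and 11 in 786-O, of which 2 rose and 4 fell (median -0.11). The next 3 genes each hold an ERSE. FICD, the enzyme that switches BiP off and on by AMPylation, rose in both lines, from 0.691 ± 0.033 to 1.02 ± 0.040 FPKM in 5637 and from 1.18 ± 0.16 to 2.46 ± 0.33 FPKM in 786-O (SD, n = 3, limma adjusted p = 0.00496 and 9.29e-04). SERP1, which stabilises membrane proteins at the translocon, fell in both, from 31.4 ± 0.69 to 28.6 ± 1.1 FPKM and from 40.1 ± 2.9 to 34.3 ± 0.89 FPKM (SD, n = 3, limma adjusted p = 0.0131 and 0.0185). The fall of SERP1 in 786-O was lost without shCBX7 replicate 2 (limma adjusted p = 0.0581) or 3 (0.0627). EIF2A, a translation initiation factor, fell in both lines as well, by log2 changes of -0.18 and -0.56 (limma adjusted p = 5.53e-04 and 1.27e-04).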
